A study of Mus musculus with 27 samples.

Results

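The lungs of A/J and KK/HlJ mice were compared across all genes. The comparison took 6 of the 27 arrays of the study: 3 of A/J and 3 of KK/HlJ. The study hybridised right lung RNA of 9 inbred strains, 3 females per strain at 11 weeks of age, each array holding 1 mouse. No treatment is given in the labels, and the lungs are described there as normal. The A/J arrays carry the label of increased severity and increased frequency of spontaneous pulmonary adenoma, and the KK/HlJ arrays the label of decreased severity and frequency. These classes describe the strains; no tumour was scored in the mice whose RNA was measured, as far as the labels say. The other 7 strains were C57BL/6J, DBA/2J, 129S1/SvlmJ, BALB/cJ, C3H/HeJ, C57L/J and MRL/MpJ.

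A/J is a strain long used in lung tumour research because its mice readily develop lung adenomas, and it carries the susceptible allele of the Pas1 locus. KK mice are used as a polygenic model of obesity and type II diabetes. Inbred strains differ at many loci at once, including the major histocompatibility complex (MHC) and clusters of innate immune genes, so a contrast of 2 strains compares whole genomes and not the adenoma label alone. On an array, a sequence difference under a probe also changes the signal, and it was not separated here from a change in transcript amount.

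Levels are given as deposited log2 signal, so that a difference of 1 is a 2-fold difference in signal. Differences are A/J minus KK/HlJ. A gene passed where the adjusted p of limma's moderated test was under 0.05, and was called where the difference was also at least 1 on the log2 scale. The array medians over named genes lay between 6.27 and 6.29 in A/J and between 6.31 and 6.40 in KK/HlJ. Each of the 6 arrays correlated best with an array of the same strain, with Pearson correlations across genes of 0.994 to 0.996 within A/J, 0.99 to 0.993 within KK/HlJ and 0.985 to 0.988 between the strains. Since array serial numbers run strain by strain, an effect of run order cannot be told apart from one of strain. Lung identity was clear in both strains: the 17 alveolar type II genes averaged 10.90 to 11.00 on the A/J arrays and 11.03 to 11.08 on the KK/HlJ arrays. In these female mice 7 Y-linked genes had means over the 27 arrays between 2.55 (Eif2s3y) and 5.09 (Sry), the second highest being 3.42. Levels near or under 3.42 were therefore read as background, and a difference measured from such a level may understate the true one. Of the called genes, 33 had the lower strain mean under 4.13.

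Of 20239 named genes, 173 were called, which is 0.855% of those tested. They comprised 66 genes higher in A/J (0.326%) and 107 lower in A/J (0.529%). Without the minimum difference, 1609 genes passed (7.95%), 546 of them higher in A/J (2.7%) and 1063 lower (5.25%). Counts of passing genes in the gene lists below are to be read beside these shares. The 3 A/J and 3 KK/HlJ values did not overlap in 4772 genes (23.6%), among them 171 of the 173 called genes. The direction of the small differences depended on scaling: 33.9% of the passing genes were higher in A/J in the deposited values, 46.5% after quantile normalization and 54.4% after median centring. Among the called genes the share was 38.2% in the deposited values, 44% after quantile normalization and 47.3% after median centring. The median difference of all genes was -0.03 in the deposited values, 0.00 after quantile normalization and 0.04 after median centring. The mean over all genes was 6.20 on each A/J array, and 6.20, 6.29 and 6.21 on the KK/HlJ arrays. Without A/J replicate 2 the 1063 lower genes became 700. The plot of difference against level shows called genes among dim and bright signals alike.

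**Figure D1:**
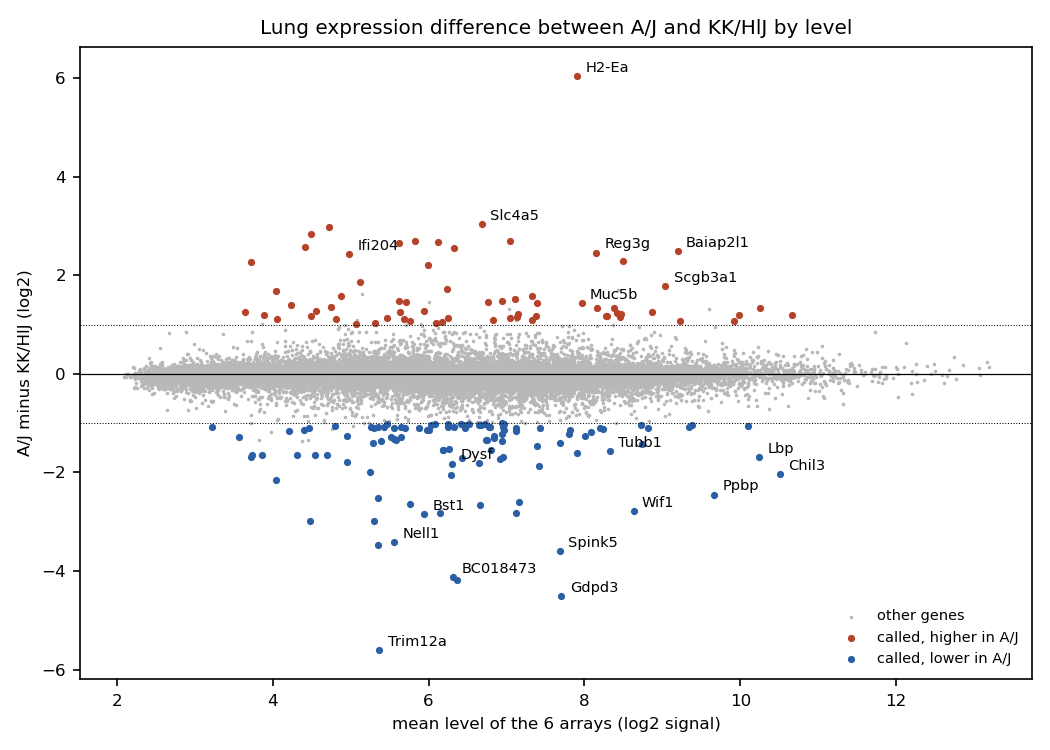
Each point is 1 of 20239 genes, placed by its mean level over the 6 arrays (x axis, log2 signal) and its difference, A/J minus KK/HlJ (y axis, log2). Red points are the 66 called genes higher in A/J and blue points the 107 called genes lower in A/J, with the dotted lines at a difference of 1 in either direction. H2-Ea at the top (6.05) and Trim12a at the bottom (-5.61) lie farthest from 0.

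H2-Ea differed most in the positive direction. It encodes the alpha chain of I-E, an MHC class II molecule that presents peptides to CD4 T cells, and some mouse haplotypes lack a functional copy. H2-Ea read 10.98, 10.94 and 10.89 in A/J, against 4.96, 5.16 and 4.53 in KK/HlJ, a difference of 6.05 (SE 0.12, adjusted p = 1.47e-20) or 66.4-fold. The KK/HlJ values were near that of Sry, the brightest Y-linked gene. The H2-Ea means of the other 7 strains ran from 4.79 to 11.42.

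The next genes were of varied function. Slc4a5, a sodium bicarbonate cotransporter, read 8.02, 8.38 and 8.19 in A/J, against 5.44, 4.92 and 5.11 in KK/HlJ (difference 3.04, adjusted p = 4.78e-16). Every other strain mean of Slc4a5 lay between 7.80 and 8.19, at the A/J level. Snord47, a small nucleolar RNA of the kind that guides methylation of other RNAs, read 7.27, 7.39 and 6.83 in A/J, against 4.62, 4.62 and 4.17 in KK/HlJ (difference 2.70, adjusted p = 3.00e-08), and here A/J stood above the other strain means of 5.27 to 5.56. Baiap2l1, which bends membranes and binds actin, was nearly constant among the A/J mice at 10.43, 10.46 and 10.42, against 7.97, 8.12 and 7.77 in KK/HlJ (difference 2.49, adjusted p = 1.28e-13). Zinc finger genes Zfp607a and Zfp931 were higher in A/J by 2.65 and 2.28, with the KK/HlJ means of 4.30 and 2.58 more than 1 below each other strain. Rps3a3, a copy of a ribosomal protein gene, was higher by 2.29, Gm10288 by 2.84 and 5830417I10Rik by 2.67. Among them were 2 immunoglobulin variable segments: Iglv2 at 7.70, 5.96 and 4.95 in A/J, against 3.48, 3.45 and 2.75 in KK/HlJ, and Igkv2-109 at 6.32, 6.12 and 4.67 in A/J, against 2.55, 4.0 and 2.82 in KK/HlJ. Both varied widely among the A/J mice, and the Iglv2 call was lost without A/J replicate 1 (difference 2.23, adjusted p = 0.0534). Nppa, the atrial natriuretic peptide gene, read 10.15, 7.83 and 7.18 in A/J, against 6.15, 5.64 and 5.29 in KK/HlJ. Its difference of 2.70 (adjusted p = 0.00474) became 1.81 without A/J replicate 1 (adjusted p = 0.0458). Reg3g, Ifi204 and Trim34b, the remaining genes among the 15 with the largest positive difference, are described with their families below.

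Trim12a differed most in the negative direction. It belongs to the tripartite motif (TRIM) genes next to the antiviral factor Trim5 family on chromosome 7. It read 2.73, 2.49 and 2.47 in A/J, no brighter than most Y-linked genes, against 7.94, 8.17 and 8.41 in KK/HlJ (difference -5.61, SE 0.15, adjusted p = 5.11e-18). Gdpd3, a lysophospholipase D that releases lysophosphatidic acid, read 5.45, 5.31 and 5.59 in A/J, against 10.09, 9.72 and 10.06 in KK/HlJ (difference -4.51, adjusted p = 1.10e-17). BC018473 read 4.24, 4.23 and 4.30 in A/J, against 8.64, 8.42 and 8.06 in KK/HlJ (difference -4.12, adjusted p = 2.38e-18). Few other strains shared the KK/HlJ level. They were C57BL/6J for Trim12a (8.57), 129S1/SvlmJ (10.29) and C57L/J (9.40) for Gdpd3, and 129S1/SvlmJ for BC018473 (8.55). The remaining strain means lay near A/J, at 2.52 to 2.87 for Trim12a, 5.67 to 5.97 for Gdpd3 and 4.12 to 4.34 for BC018473.

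Some genes were higher in KK/HlJ than in every other strain. Spink5 encodes LEKTI, an inhibitor of kallikrein-type serine proteases best known in skin. It read 6.16, 5.94 and 5.55 in A/J, against 9.57, 9.46 and 9.39 in KK/HlJ (difference -3.59, adjusted p = 2.21e-13), and no other strain mean exceeded 5.69. Wif1, a secreted inhibitor that binds Wnt proteins, read 6.94, 7.45 and 7.34 in A/J, against 10.06, 10.04 and 9.96 in KK/HlJ (difference -2.78, adjusted p = 6.44e-14), with other strain means of 6.07 to 7.20. Hepacam, a cell adhesion molecule, differed by -2.66, with an MRL/MpJ mean of 6.72 between the 2 strains, and M1ap, a gene needed in meiosis, differed by -2.82. Lbp, which carries bacterial lipopolysaccharide to CD14, read 9.42, 9.39 and 9.39 in A/J, against 11.14, 10.97 and 11.13 in KK/HlJ (difference -1.68, adjusted p = 8.89e-13), with other strain means of 9.50 to 9.85. Lbp lies outside the naming rule. For Bst1 it was A/J that stood apart: this NAD-consuming ectoenzyme of the myeloid surface read 4.49, 4.58 and 4.50 in A/J, against 7.43, 7.21 and 7.43 in KK/HlJ (difference -2.84, adjusted p = 1.38e-15), and the other strain means of 7.23 to 7.91 were at the KK/HlJ level.

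The other genes among the 15 with the largest negative difference were the neurexophilin-like gene Nxpe4 (-3.48), the secreted growth regulator Nell1 (-3.42), Trim30d (-2.98), the gamma protocadherin Pcdhgb5 (-2.83), the signal-regulatory receptor gene Sirpb1c (-2.64), the histone variant gene H2az1 (-4.18) and the ribosomal protein gene Rps6 (-2.99). H2az1 read 4.43, 3.68 and 4.72 in A/J, against 8.56, 8.18 and 8.61 in KK/HlJ, and Rps6 read 3.16, 4.01 and 4.24 in A/J, against 6.58, 7.24 and 6.56 in KK/HlJ. Ribosomal protein and histone genes have near-identical copies in the genome, so these signals are uncertain as levels of the named gene. Of 12 measured cytosolic ribosomal protein genes 0 passed as higher in A/J and 2 as lower, Rps6 and Rpl29 (-2.52), with a list median of 0.01. The plot of the 30 genes sets each array beside the means of the other strains.

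**Figure D2:**
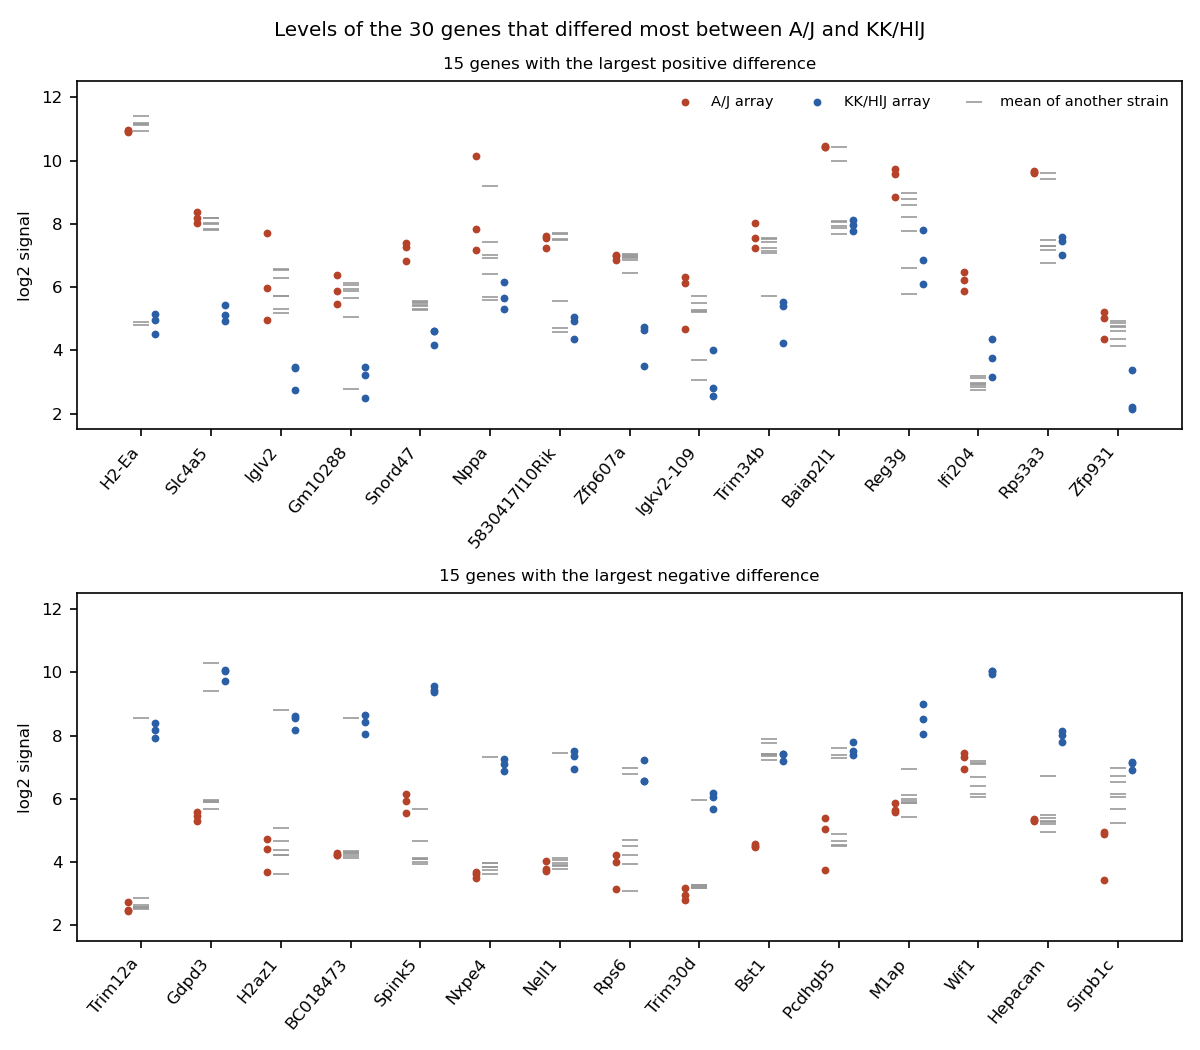
Log2 signal (y axis) of the 15 genes with the largest positive difference (upper panel) and the 15 with the largest negative difference (lower panel); red points are the 3 A/J arrays, blue points the 3 KK/HlJ arrays and grey dashes the means of the other 7 strains. For Slc4a5 the grey dashes lie with the A/J points and for Bst1 with the KK/HlJ points. For Trim12a all but that of C57BL/6J lie with the A/J points.

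Sorting the strain means gave few genes on which A/J or KK/HlJ stood apart from all other strains by at least 1. Of the 66 genes called higher in A/J, A/J stood above the other 8 strain means in 2 (Snord47 and Ifi204), and KK/HlJ stood below the other 8 in 8 (Slc4a5, Iglv2, Zfp607a, Zfp931, Gabra3, Iyd, Ldhb and Myl6). Of the 107 genes called lower in A/J, A/J stood below the other 8 in 2 (Bst1 and Dysf), and KK/HlJ stood above them in 9 (Spink5, M1ap, Wif1, Hepacam, Vmn2r96, Nlrp1a, Lbp, Ighv1-67 and Slc37a1). In the remaining 56 genes higher and 96 genes lower in A/J, neither strain stood apart by that margin. Ldhb, the heart-type subunit of lactate dehydrogenase, illustrates a gene low in KK/HlJ: it read 8.03, 8.11 and 8.20 in A/J, against 6.49, 6.79 and 6.74 in KK/HlJ (difference 1.44, adjusted p = 6.26e-05), with the other strain means between 7.97 and 8.22. Ldhb too lies outside the naming rule.

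Called genes formed 3 runs of at least 3 neighbours within 10 annotated genes of each other, and 40 of the 173 had another called gene that near. No matching share over all genes was computed, so neither count is read as an excess. On chromosome 1 the interferon-inducible Ifi200 genes Ifi208, Ifi204, Ifi203 and Ifi205 were all higher in A/J. These genes encode proteins with DNA-binding domains, several of which sense foreign DNA. Ifi204 read 5.89, 6.46 and 6.21 in A/J, against 4.36, 3.16 and 3.76 in KK/HlJ (difference 2.43, adjusted p = 5.09e-09), and Ifi203 read 8.09, 7.94 and 7.85 in A/J, against 6.93, 6.73 and 6.73 in KK/HlJ (difference 1.17, adjusted p = 7.50e-06). Ifi208 was higher by 1.12 and Ifi205 by 1.11. Of the 10 measured genes of this cluster 4 passed as higher and 0 as lower, with a list median of 0.09 against -0.03 for all genes; the adjusted p of Ifi205, 0.0247 on all arrays, passed the threshold when A/J replicate 3 or KK/HlJ replicate 1 was left out but not when any other of the 6 arrays was.

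On chromosome 7 the TRIM cluster held genes that went opposite ways. Trim34b, a relative of the antiviral TRIM genes, read 7.24, 8.01 and 7.56 in A/J, against 4.23, 5.39 and 5.52 in KK/HlJ (difference 2.56, adjusted p = 3.64e-06). Trim30b (-1.15) and Trim30d (-2.98) were lower in A/J, as was Trim12a. Members of this family are close copies of each other, so signal may be shared between them. On chromosome 16 the immunoglobulin lambda segments Iglc1, Iglj1, Iglv1 and Iglv2 were all higher in A/J, by 1.17, 1.33, 1.58 and 2.98. In each the first A/J array was the highest: Iglc1, the constant region, read 9.56, 8.65 and 8.43 in A/J, against 7.32, 7.99 and 7.81 in KK/HlJ (adjusted p = 0.0244). All 4 lambda segments lost their call without A/J replicate 1, and Iglj1 and Iglv1 also without A/J replicate 2 and without any 1 of the KK/HlJ arrays; Iglc1 lost it without KK/HlJ replicate 1 too. Of 13 measured plasma cell and immunoglobulin genes Iglc1 alone passed, and the list median was -0.04.

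MHC class II molecules display peptides from engulfed proteins on dendritic cells, macrophages and B cells, and an upstream module with a Y box (core GATTGG), bound by NF-Y, drives their genes under control of Ciita. Apart from H2-Ea, the class II genes that passed were lower in A/J. Of 12 measured, 1 was higher and 5 were lower, with a median difference of -0.29. H2-Ab1, the beta chain of I-A, read 9.17, 9.19 and 9.24 in A/J, against 9.91, 9.67 and 10.28 in KK/HlJ (difference -0.76, SE 0.14, adjusted p = 9.49e-04). H2-Eb1, the beta chain of I-E, read 9.11, 9.28 and 9.00 in A/J, against 9.78, 9.53 and 10.02 in KK/HlJ (difference -0.65, SE 0.11, adjusted p = 2.69e-04). H2-Aa, the alpha chain of I-A, differed by -0.41 (adjusted p = 0.0109), H2-DMa, which helps load peptides, by -0.50 (adjusted p = 0.00151), and H2-Ob, which restrains loading, by -0.53 (adjusted p = 0.0225). The A/J and KK/HlJ arrays did not overlap in any of these 5, nor in 23.6% of all genes. In the 6 other members the difference did not pass: H2-DMb1 (0.35), H2-DMb2 (0.17), H2-Oa (-0.28), H2-Eb2 (-0.28), the invariant chain gene Cd74 (-0.20) and the transactivator gene Ciita (-0.29). KK/HlJ replicate 3 was the highest array in H2-Ab1, H2-Eb1 and H2-Aa, and without it 3 of the 5 lower genes passed. H2-Aa and H2-Ob were those lost. H2-Aa also did not pass after median centring, with the 6 arrays alone or without A/J replicate 1. H2-Ob also did not pass after quantile normalization, or without A/J replicate 3 or KK/HlJ replicate 2.

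The promoters of 3 of the lower genes are shown because they share the Y box, written in capitals as GATTGG or, on the other strand, CCAATC. They come from RefSeq (GRCm38.p6) and run from 250 bases before the start of transcription to 50 after it, on the strand of the gene: H2-Eb1 at chr17:34305617-34305916 (+), H2-Aa at chr17:34287774-34288073 (-) and H2-Ob at chr17:34238655-34238954 (+). They are reference sequence and not that of A/J or KK/HlJ.
H2-Eb1: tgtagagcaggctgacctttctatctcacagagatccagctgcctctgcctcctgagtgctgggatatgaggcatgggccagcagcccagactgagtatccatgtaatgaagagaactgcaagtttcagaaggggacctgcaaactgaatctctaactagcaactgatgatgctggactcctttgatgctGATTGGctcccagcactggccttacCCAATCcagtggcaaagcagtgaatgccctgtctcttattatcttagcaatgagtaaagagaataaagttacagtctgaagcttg
H2-Aa: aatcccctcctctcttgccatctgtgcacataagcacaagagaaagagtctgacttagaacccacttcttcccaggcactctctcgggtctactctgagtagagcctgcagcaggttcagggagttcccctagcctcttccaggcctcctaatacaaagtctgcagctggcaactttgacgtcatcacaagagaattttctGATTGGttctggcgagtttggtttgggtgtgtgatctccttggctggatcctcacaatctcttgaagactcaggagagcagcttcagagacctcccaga
H2-Ob: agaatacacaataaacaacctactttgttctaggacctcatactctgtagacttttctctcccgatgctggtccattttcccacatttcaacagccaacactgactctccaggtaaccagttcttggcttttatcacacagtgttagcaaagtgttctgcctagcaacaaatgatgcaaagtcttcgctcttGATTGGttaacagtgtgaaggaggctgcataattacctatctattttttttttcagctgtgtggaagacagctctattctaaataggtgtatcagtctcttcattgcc
The motif lay 49 bases before the start in H2-Aa, 58 in H2-Ob, and 35 and 60 in H2-Eb1. Searched on both strands, it occurred in 7 of the 8 class II genes with a promoter in the table (87.5%), against 5292 of all 32851 promoters of that length (16.1%). The 8 include genes that did not pass, H2-DMb1, H2-DMb2, H2-Oa and H2-Eb2, and the first listed promoter of H2-DMa was the one without a match. A match is a description of the letters in this window and was found both in genes that were lower and in genes that did not pass.

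MHC class I genes, which present peptides made inside the cell to CD8 T cells, moved in both directions. Of 22 measured genes of the class I region and its loading machinery 2 passed as higher in A/J and 8 as lower, with a median of -0.25. H2-Q9, a non-classical class I gene, read 6.71, 6.26 and 6.48 in A/J, against 8.28, 7.89 and 8.87 in KK/HlJ (difference -1.86, adjusted p = 1.84e-05). H2-K2 (-1.36) and H2-Q6 (-1.08) were also called, and H2-K1, a classical class I gene, was lower by 0.48 (adjusted p = 0.0293). Tap1, which pumps peptides into the endoplasmic reticulum, was lower by 0.70, and Tapbp by 0.30. The 2 higher genes were H2-T-ps (1.12) and H2-Q8 (0.71). Class I genes are highly polymorphic and similar to each other, so these levels are uncertain for the single gene. After median centring 5 rather than 8 passed as lower, without A/J replicate 2 also 5, and with the 6 arrays alone 4.

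Interferon-stimulated genes outside the Ifi200 cluster were mostly lower in A/J where they passed. Of 26 measured, 1 passed as higher and 6 as lower, with a median of -0.30. Ifit3, an antiviral gene that binds foreign RNA complexes, read 6.43, 6.41 and 5.80 in A/J, against 7.56, 7.33 and 7.53 in KK/HlJ (difference -1.26, adjusted p = 2.74e-04). Oasl2 was lower by 0.76 and Oas2 by 0.52, both of the oligoadenylate synthetase family, and the RNA sensor gene Ddx58 by 0.35. Bst2, tetherin, which holds budding virus at the cell surface, was the higher member, at 8.37, 8.34 and 8.22 in A/J, against 7.35, 7.41 and 7.46 in KK/HlJ (difference 0.90, adjusted p = 5.43e-06). Trim12a and Trim30a, of the cluster above, were the others of the 6. Of 13 interferon-inducible GTPase genes 0 were higher and 5 lower, all guanylate-binding proteins, from Gbp9 (-0.45) to Gbp3 (-0.78), with a median of -0.51. This last count was fragile: without A/J replicate 3, or without KK/HlJ replicate 3, 0 of them passed, and 3 passed after median centring.

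Among complement and inflammasome genes, 0 of 19 measured passed as higher and 8 as lower, with a median of -0.35. Nlrp1a, a cytosolic sensor that triggers inflammasome assembly, read 4.19, 4.36 and 4.21 in A/J, against 6.45, 6.12 and 6.19 in KK/HlJ (difference -2.00, adjusted p = 2.27e-10), where no other strain mean exceeded 4.50. Cd59a, an inhibitor of the membrane attack complex, read 7.0, 6.46 and 6.49 in A/J, against 8.08, 8.09 and 8.17 in KK/HlJ (difference -1.47, adjusted p = 7.57e-06). C6, a component of that complex, was lower by 1.10. Naip5 detects bacterial flagellin, and its A/J allele is known to permit growth of Legionella in macrophages. It read 5.46, 4.99 and 5.31 in A/J, against 6.19, 6.24 and 6.20 in KK/HlJ (difference -0.95, adjusted p = 8.65e-04). The activating enzymes Cfb (-0.66) and C2 (-0.42), the inhibitor Serping1 (-0.35) and Naip2 (-0.41) completed the 8. With KK/HlJ replicate 1 left out 5 passed, and also 5 with the 6 arrays alone.

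Secretory airway genes that passed were higher in A/J. Of 14 measured genes of airway mucus and secreted defence 6 passed as higher and 0 as lower, with a median of 0.67, and of 13 club cell genes 6 passed as higher and 0 as lower, with a median of 0.23. Muc5b, the main gel-forming mucin of the resting airway, read 8.87, 8.69 and 8.48 in A/J, against 7.67, 7.37 and 6.72 in KK/HlJ (difference 1.43, SE 0.22, adjusted p = 1.36e-04). Pigr, which carries IgA across the epithelium, read 9.14, 9.23 and 8.76 in A/J, against 7.86, 7.79 and 7.75 in KK/HlJ (difference 1.24, SE 0.13, adjusted p = 3.11e-07). Reg3g, an antibacterial lectin, read 9.57, 9.74 and 8.85 in A/J, against 7.79, 6.85 and 6.11 in KK/HlJ (difference 2.46, SE 0.54, adjusted p = 0.00426). In all 3 genes the strains did not overlap, as in 171 of the 173 called genes. Bpifb1 (1.08), Tff2 (1.07) and Agr2 (0.48), a secreted defence protein, a trefoil peptide and a mucin-folding enzyme, were the other members that passed. The goblet cell mucin Muc5ac (0.35, adjusted p = 0.0781), its regulator Spdef (0.25) and the abundant secreted protein Bpifa1 (0.50, adjusted p = 0.541) did not pass.

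Club cells line the small airways, secrete secretoglobins and metabolise inhaled chemicals. Scgb3a1 read 9.92, 10.17 and 9.71 in A/J, against 9.06, 7.95 and 7.43 in KK/HlJ (difference 1.79, SE 0.35, adjusted p = 0.00131). Aldh3a1, an aldehyde dehydrogenase, read 7.85, 8.05 and 7.72 in A/J, against 6.37, 6.64 and 6.04 in KK/HlJ (difference 1.52, SE 0.13, adjusted p = 1.24e-08). The xenobiotic-metabolising P450 genes Cyp4b1 and Cyp2f2 were higher by 0.50 and 0.34, Scgb3a2 by 0.48 and Selenbp1 by 0.37. Of 15 genes of the adjoining ciliated cells Dnaic1 (0.58) and Foxj1 (0.43) were higher and Rsph1 (-0.89) lower. The other 12 did not pass, and the median was 0.05. Foxj1 did not pass with the 6 arrays alone, or without A/J replicate 1, A/J replicate 2 or KK/HlJ replicate 3. Bulk RNA does not tell fewer cells of a type from less RNA per cell. Without A/J replicate 1 or without KK/HlJ replicate 3 the count of 6 mucus and defence genes became 4, and without both arrays 3; these 2 arrays also held the most hepatocyte transcript of their strains, and the part of that in the result was not tested. Hepatocyte genes, a list added after the data were seen, averaged 5.74, 4.69 and 5.19 on the A/J arrays and 4.85, 4.71 and 6.63 on the KK/HlJ arrays, and 0 of 11 passed.

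Platelet and megakaryocyte genes that passed were lower in A/J. Of 12 measured, 0 passed as higher and 8 as lower, with a median of -0.81 and 5 of them called. Ppbp, a chemokine stored in platelet granules, read 7.23, 9.68 and 8.42 in A/J, against 10.83, 10.69 and 11.15 in KK/HlJ (difference -2.45, SE 0.44, adjusted p = 5.89e-04). Tubb1, the tubulin of the platelet ring, read 7.12, 7.93 and 7.57 in A/J, against 9.08, 9.02 and 9.23 in KK/HlJ (difference -1.57, SE 0.19, adjusted p = 5.35e-06). The strains did not overlap in either gene, as in 171 of the 173 called genes. Itga2b, a chain of the fibrinogen receptor, read 6.04, 6.95 and 6.40 in A/J, against 7.51, 7.46 and 7.45 in KK/HlJ (difference -1.01, adjusted p = 4.31e-04). F2rl2, a thrombin receptor, was lower by 1.40, Clec1b, the podoplanin receptor, by 1.03, Pf4 by 0.86, Gp9 by 0.77 and Itgb3 by 0.64. The list averaged 6.21, 7.0 and 6.56 on the A/J arrays and 7.47, 7.43 and 7.58 on the KK/HlJ arrays. A/J replicate 2, the highest of the A/J arrays in Ppbp, Tubb1, Itga2b, Clec1b, Pf4 and Gp9, was also highest in erythroid genes. That list, added after the data were seen, averaged 4.96, 6.54 and 4.97 on the A/J arrays and 4.97, 5.59 and 5.21 on the KK/HlJ arrays, and 1 of 7 erythroid genes passed (Tspo2, 0.46). The part of retained blood in the platelet result was not tested. With A/J replicate 2 left out 9 platelet genes passed, and 6 to 8 with any other of the 6 arrays left out. With only the 6 arrays in the fit 5 passed, and also 5 without both A/J replicate 1 and KK/HlJ replicate 3. Vwf, made by endothelium and megakaryocytes, read 9.60, 9.47 and 9.63 in A/J, against 10.75, 10.58 and 10.55 in KK/HlJ (difference -1.06, adjusted p = 6.62e-08), while 14 of 16 endothelial genes did not pass and their median was -0.04.

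Natural killer (NK) cell and cytotoxic genes that passed were lower in A/J. Of 19 measured, 0 passed as higher and 9 as lower, with a median of -0.54. Gzma, a granule protease, read 6.06, 5.95 and 5.87 in A/J, against 7.26, 6.84 and 6.90 in KK/HlJ (difference -1.04, SE 0.21, adjusted p = 0.00238). Ncr1, the activating receptor NKp46, read 4.63, 4.97 and 4.87 in A/J, against 6.02, 5.94 and 5.70 in KK/HlJ (difference -1.07, SE 0.19, adjusted p = 5.01e-04). Nkg7, a granule membrane protein, read 6.05, 6.27 and 6.07 in A/J, against 7.05, 7.07 and 7.19 in KK/HlJ (difference -0.97, SE 0.16, adjusted p = 2.82e-04). The pore-forming protein gene Prf1 was lower by 0.61. The receptor genes Klra8 (-1.29), Klrd1 (-0.80), Klrb1c (-0.76), Klrb1b (-0.70) and Klrk1 (-0.49) also passed; they lie in a polymorphic cluster, and Klra8 and Klrb1c were near background in A/J, at means of 2.92 and 3.01. Between 8 and 11 NK genes passed with any of the 6 arrays left out. T cell genes gave no such result: 0 of 16 passed in limma's test, the smallest adjusted p being 0.102 (Zap70), and their median was -0.13.

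**Figure D3:**
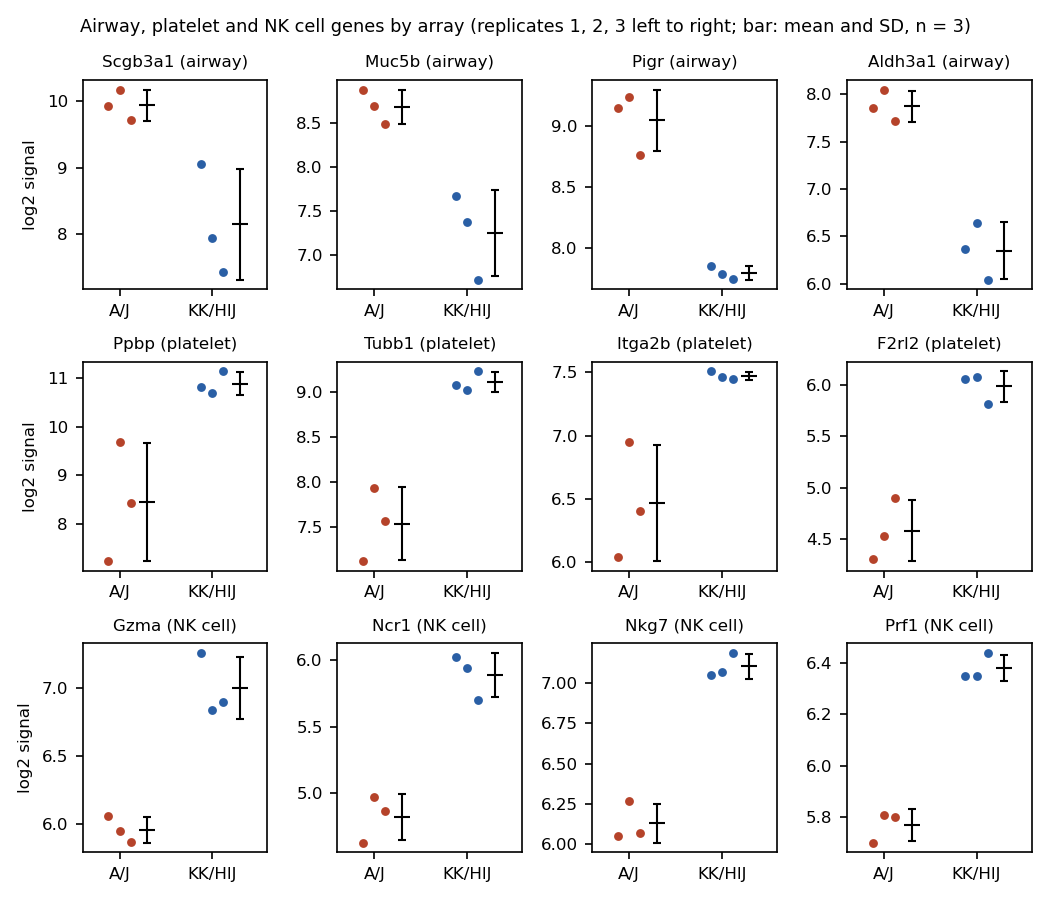
Log2 signal (y axis, a separate scale per panel, none starting at 0) of 4 airway, 4 platelet and 4 NK cell genes on the 3 A/J arrays (red, left) and the 3 KK/HlJ arrays (blue, right), with replicates 1, 2 and 3 from left to right and black bars for mean and SD (n = 3). The A/J points lie above the KK/HlJ points in the airway row and below them in the platelet and NK cell rows, with A/J replicate 2 the highest A/J point of Ppbp, Tubb1 and Itga2b. Gzma and Prf1 were plotted outside the naming rule.

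Monocyte and neutrophil genes showed fewer passing members. Of 14 interstitial macrophage and monocyte genes 4 were lower in A/J: Treml4 (-0.66), Nr4a1 (-0.58), Cx3cr1 (-0.47) and Lyz1 (-0.47). Of 16 neutrophil genes 2 were lower, S100a9 (-1.04) and Csf3r (-0.90), beside 5.25% of all genes. In the first list 0 passed as higher and the median was -0.07; in the second 0 passed as higher and the median was -0.18. Some called genes outside the naming rule were picked after their values were seen, and belong to no list here. Plac8 read 6.09, 6.34 and 6.31 in A/J, against 7.44, 7.66 and 7.76 in KK/HlJ (difference -1.37), and Ifitm6 (-1.55), Adgre4 (-1.34), Slfn4 (-1.35) and Cxcr1 (-1.13) were lower too.

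In alveolar macrophages, the resident phagocytes of the air space, 3 of 15 listed genes passed, in both directions. Chil3, the chitinase-like protein Ym1, read 9.71, 9.37 and 9.38 in A/J, against 11.56, 11.37 and 11.65 in KK/HlJ (difference -2.04, SE 0.20, adjusted p = 1.74e-07). Mcoln3, a calcium channel of endosomes, was lower by 1.73, and Krt79, a keratin, was higher by 1.22. The other 12, including the general markers, did not pass, and the median was -0.05. Of the 8 chitinase family genes Chil4 was lower too (-0.69), but at means of 4.23 in A/J and 4.92 in KK/HlJ; Chil1 (-0.18), Chia1 (-0.37), Ctbs (-0.19), Chit1 (0.04), Chil5 (-0.09) and Chil6 (-0.03) did not pass.

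Dendritic cell genes were split, with 3 higher and 2 lower of 14. Cd207, langerin, read 5.87, 5.80 and 5.35 in A/J, against 3.97, 4.18 and 4.09 in KK/HlJ (difference 1.59, adjusted p = 5.68e-08); Clec9a (0.64) and Cd209a (0.53) were higher, and Ly6d (-1.30) and Clec10a (-1.0) lower. In B cells Fcmr (0.65) and Cd72 (0.49) were the 2 of 14 that passed, both higher, beside 2.7% of all genes. Neither passed without A/J replicate 1, A/J replicate 2, KK/HlJ replicate 1 or KK/HlJ replicate 2.

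Few genes of the alveolar epithelium passed. Of 17 type II cell genes, which make surfactant and are a source of mouse lung adenomas, 0 were higher and 2 lower, Sftpb (-0.41) and Fabp5 (-0.87), and the median was -0.10. Of 13 type I cell genes Sec14l3 was higher (0.57) and Igfbp2 lower (-0.68). Of 20 fibroblast and matrix genes 2 were higher and 3 lower, Lum most (-1.02). The counts of these lists stand beside 2.7% of all genes higher and 5.25% lower. The mesothelial, skeletal muscle, mast cell, fat and cholesterol synthesis lists had 0 passing genes in limma's test. The fat list nevertheless had a median of 0.80, with Fabp4 at 9.84, 9.22 and 8.77 in A/J, against 8.48, 7.37 and 6.86 in KK/HlJ (adjusted p = 0.0797). The cardiac muscle genes of the pulmonary veins were split: Nppa, Tnnt2 (0.67) and Ryr2 (0.56) were higher and Actc1 (-0.66) lower, and without A/J replicate 1 Tnnt2 and Ryr2 no longer passed.

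**Figure D4:**
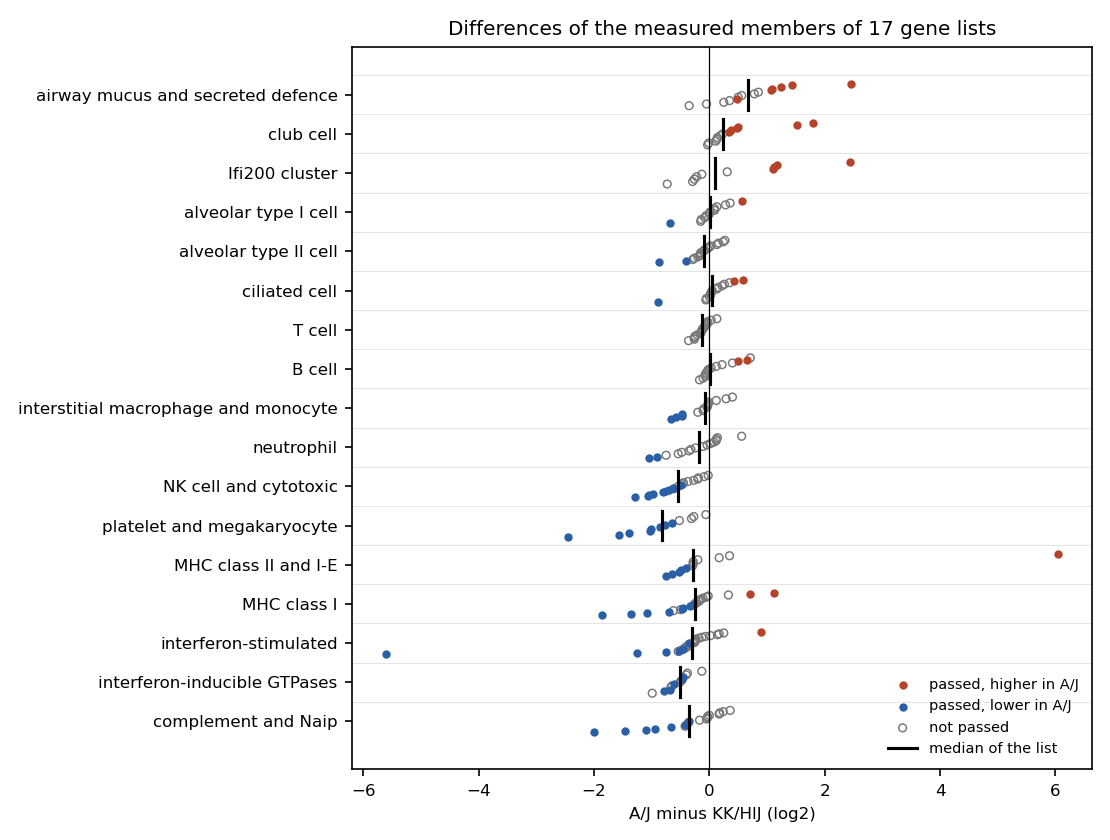
Differences, A/J minus KK/HlJ (x axis, log2), of the measured members of 17 gene lists (rows); filled points passed (red higher in A/J, blue lower in A/J), open circles did not pass, and each black bar is the median of its list. The medians of the airway rows at the top are positive (0.67 and 0.23), those of the platelet and NK cell rows negative (-0.81 and -0.54), and H2-Ea (6.05) and Trim12a (-5.61) stand far from the rest of their lists.

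The strains were labelled by adenoma class, and genes of the Pas1 region on chromosome 6 and other lung tumour candidates passed in small number. Of 21 measured, 2 passed as higher and 2 as lower, a share of each direction to be read against 2.7% and 5.25% of all genes, and the median was -0.02. Egfr, a growth factor receptor, read 7.96, 7.94 and 7.92 in A/J, against 7.58, 7.51 and 7.54 in KK/HlJ (difference 0.40, adjusted p = 0.0143). Itpr2, a calcium release channel, was higher by 0.21 (adjusted p = 0.0411). The tumour suppressor gene Rassf1 was lower by 0.30 (adjusted p = 0.0452) and the circadian repressor gene Bhlhe41 by 0.44 (adjusted p = 0.0149). Leaving out any of the 6 arrays left 0 or 1 passing in each direction, and after quantile normalization 0 passed as lower. The others did not pass: the Pas1 genes Casc1 (-0.07), Lrmp (0.04), Etfrf1 (-0.02), Bcat1 (0.18), Med21 (0.03), Sspn (-0.23) and Lmo3 (-0.19), the cell cycle regulators Rb1 (0.18), Cdkn2a (-0.06), Cdkn2b (-0.29) and Tpx2 (-0.31), the signalling genes Braf (0.08), Nras (-0.10), Stk11 (0.00) and Ptprj (-0.01), and Myc (0.09) and Mtap (-0.19). Of 28 cell cycle genes Mcm6 was higher (0.83) and Bub1b (-0.70) and Top2a (-0.46) lower, again beside 2.7% and 5.25% of all genes.

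Of 18 genes with mutations known in some laboratory strain 0 were higher and 4 lower. Dysf, dysferlin, which repairs muscle membrane and is disrupted by a retrotransposon in A/J, read 5.10, 5.61 and 5.45 in A/J, against 7.27, 7.25 and 7.12 in KK/HlJ (difference -1.82, SE 0.10, adjusted p = 1.60e-11), below the other strain means of 6.82 to 7.41. Naip5, Klrd1 and Ahr, the receptor for dioxin-like ligands (-0.35, adjusted p = 0.0257), were the others. Hc, complement C5, whose coding sequence is broken in A/J, read 10.16, 10.05 and 10.08 in A/J, against 9.90, 9.95 and 9.73 in KK/HlJ (adjusted p = 0.106). The other strain means of Hc ran from 9.80 in DBA/2J to 11.52 in C57BL/6J, so KK/HlJ itself lay among the lower strains. The differences of the other 13, Cdh23, Disc1, Fas, Gpnmb, Mlph, Mx1, Myo5a, Nnt, Nod2, Pde6b, Tlr4, Tyr and Tyrp1, lay between -0.36 and 0.08 and did not pass.

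Metabolic genes differed singly. Gatm, the first enzyme of creatine synthesis, read 7.07, 7.15 and 7.04 in A/J, against 5.35, 5.40 and 5.35 in KK/HlJ (difference 1.72, SE 0.10, adjusted p = 1.41e-11), and the glucose transporter gene Slc2a1 was higher by 0.46. Fbp2, a fructose bisphosphatase, read 7.06, 6.86 and 7.02 in A/J, against 8.38, 8.46 and 8.31 in KK/HlJ (difference -1.40, adjusted p = 1.65e-07), and Slc2a3 (-0.79) and Igf1 (-0.52) were lower. Fbp1, the liver isoform, read 5.32, 4.79 and 4.59 in A/J, against 5.61, 5.11 and 7.94 in KK/HlJ (difference -1.32, adjusted p = 0.0465). Albumin (Alb) read 9.72, 5.51 and 7.92 in A/J, against 6.42, 4.97 and 9.84 in KK/HlJ, so KK/HlJ replicate 3 was the highest array of its strain in both. Serpina1b, an alpha-1-antitrypsin gene of liver, read 8.22, 3.65 and 5.71 in A/J, against 7.81, 7.63 and 9.95 in KK/HlJ (adjusted p = 0.0303), highest in each strain on the array with the most Alb. The part of liver RNA in these 2 results was not tested. Of 22 glucose, insulin and creatine genes 2 were higher and 4 lower, and without KK/HlJ replicate 3 or without A/J replicate 3, 2 remained lower.

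Clustered protocadherins, adhesion proteins encoded in a tandem array, gave 1 higher and 8 lower of 43 measured, with Pcdhb9 higher by 1.69 and Pcdhgb5, Pcdhga3 (-1.08) and Pcdhb4 (-1.07) called lower. Without A/J replicate 1 or 2 the 8 became 5, and with the 6 arrays alone also 5. Of 12 vanin and serpin family genes Serpina1d was higher (0.67) and Spink5, Serpina1b, Vnn1 (-0.77) and Vnn3 (-0.61) lower, and without A/J replicate 2 this count of 4 became 2. Serpina1d was at background in KK/HlJ (mean 3.39, against 4.06 in A/J) and did not pass with the 6 arrays alone. Its highest array was A/J replicate 1, also the highest A/J array in Alb, and the part of liver RNA was not tested. Among 35 chemokine and receptor genes Ccl11 (0.67) and Ccl9 (0.62) were higher and Cxcl14 (-1.14) and Cxcr6 (-0.49) lower; Ccl11 did not pass with any 1 of the 6 arrays left out, and Ccl9 did not without A/J replicate 2 or KK/HlJ replicate 2. Toll-like receptors gave Tlr1 higher (0.61) and Tlr13 (-0.65) and Tlr2 (-0.37) lower of 16, beside 2.7% and 5.25% of all genes. Tlr1 passed without A/J replicate 3 but not with any other of the 6 arrays left out, and Tlr2 did not pass after quantile normalization, after median centring, with the 6 arrays alone, or without A/J replicate 1, A/J replicate 2 or KK/HlJ replicate 1. Of the EGF family Erbb3 was higher (0.47) with Egfr, and Nrg1 lower (-0.70), of 11. The other counts of this paragraph are to be read beside the same 2.7% and 5.25%. Other lists held 1 to 3 passing genes: Sult1d1 (0.97) and Aox3 (0.42) beside Aldh3a1 among 37 conjugation and aldehyde genes, Cyp3a13 (-0.52) beside the 2 club cell P450 genes among 22, Gpx3 (-0.65) among 19 antioxidant genes, Per1 (0.61) and Bhlhe41 among 17 clock genes, Nr4a1 among 18 immediate early genes, and Actg2 (0.42) among 8 smooth muscle genes.

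Mir30a was the microRNA gene found among the called genes, picked after its values were seen. MicroRNAs pair through their seed, bases 2 to 8, with target messages. The probe set read 4.81, 4.68 and 4.67 in A/J, against 5.82, 5.93 and 5.67 in KK/HlJ (difference -1.08, SE 0.15, adjusted p = 1.90e-05). The 2 mature forms, from RefSeq (GRCm38.p6), are printed with the seed in capitals because the arms have different seeds; the 5p arm lies at chr1:23272274-23272295 and the 3p arm at chr1:23272315-23272336, both on the + strand.
mmu-miR-30a-5p: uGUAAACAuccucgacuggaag
mmu-miR-30a-3p: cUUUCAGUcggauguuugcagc
The array measures long labelled RNA of the locus, so the value is not a level of either mature arm.

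The design also allowed the called genes to be read in other strains with the same pair of labels. C57BL/6J and DBA/2J carry the adenoma labels of A/J, and MRL/MpJ those of KK/HlJ. The mean of the first 2 minus MRL/MpJ shares no array with A/J minus KK/HlJ. In it 3591 genes passed (17.7%), 1423 higher (7.03%) and 2168 lower (10.7%); the count of 3591 became 2143 without MRL/MpJ replicate 1 and 1861 without MRL/MpJ replicate 3. Of the 173 genes called between A/J and KK/HlJ, 30 (17.3%) passed there in the same direction and 36 (20.8%) in the opposite direction, against 1717 (8.48%) and 1874 (9.26%) of all genes. Of the 66 genes called higher in A/J, 12 passed in the same and 6 in the opposite direction, and of the 107 called lower, 18 and 30. These shares were not tested against each other.

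Called in both contrasts and in the same direction were 8 genes: Gm10288, higher, and Pcdhgb5, Hepacam, Abca17, Fbp2, Gm7582, Cxcr1 and Scn3b, lower. In Pcdhgb5 the averaged strains were not alike. Its C57BL/6J mean (7.31) lay with MRL/MpJ (7.39) and KK/HlJ (7.56), and its DBA/2J mean (4.88) with A/J (4.73). Fbp2 averaged 6.98 in A/J and 8.38 in KK/HlJ, and 5.10 in C57BL/6J and 5.18 in DBA/2J, against 7.41 in MRL/MpJ. Cxcr1, a chemokine receptor of neutrophils, averaged 6.40 in A/J and 7.53 in KK/HlJ, and 5.81 in C57BL/6J and 5.80 in DBA/2J, against 7.72 in MRL/MpJ. Hepacam averaged 5.33 in A/J and 7.99 in KK/HlJ, and 5.31 in C57BL/6J and 5.48 in DBA/2J, against 6.72 in MRL/MpJ. Another 16 genes were called in opposite directions, H2-Ea, Trim12a and Ppbp among them. In Trim12a the C57BL/6J mean of 8.57 lay with KK/HlJ (8.17), while DBA/2J (2.57) and MRL/MpJ (2.57) lay with A/J (2.56). Across 3 strains with 1 label and 2 with the other, a shared label cannot be told apart from shared ancestry.

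**Figure D5:**
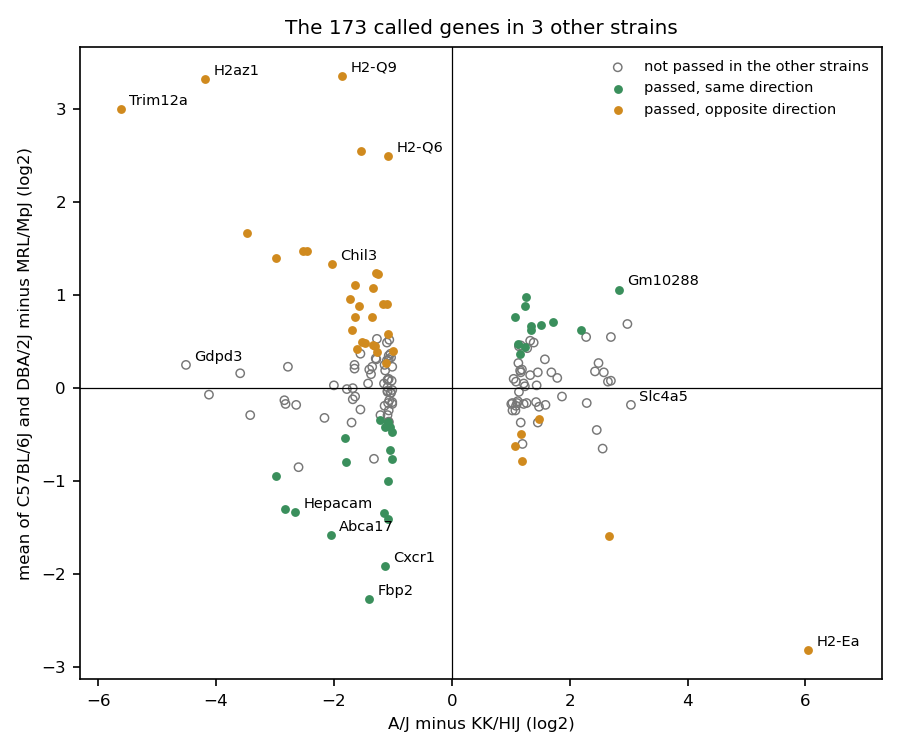
Each of the 173 called genes by its difference between A/J and KK/HlJ (x axis, log2, A/J minus KK/HlJ) and its difference between the mean of C57BL/6J and DBA/2J and MRL/MpJ (y axis, log2). The 30 genes that passed in the same direction are green, the 36 that passed in the opposite direction orange, and the rest open; H2-Ea at the lower right and Trim12a at the upper left oppose each other in the 2 contrasts.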

How the data were processed

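Lung RNA of 27 female mice of 9 inbred strains, 3 per strain, was measured on Mouse Gene 1.0 ST arrays, here with 6 of them compared and the other 21 adding to the estimate of spread. The values are log2 signals as deposited by the authors, from 1.78 to 13.35; the affy package is named in the submitters' processing notes, while its version and the normalization are not given in the sources used here. Of 21225 probe sets 20239 had 1 gene symbol, 0 several and 986 none; symbols were updated through Entrez identifiers to RefSeq (GRCm38.p6). limma 3.58.1 (R 4.3.3) was fitted with 1 mean per strain (18 residual degrees of freedom), with Benjamini-Hochberg adjustment over 20239 genes. The array number limits the precision. The p-values weigh a difference against the spread between arrays of a strain, pooled over the 9 strains. Each array holds 1 mouse, so spread between mice and between arrays cannot be told apart. Of 883 entries in 48 gene lists 792 were measured. The lists and the naming rule were chosen with earlier results of these data known. The rule took the 15 largest differences each way among called genes whose strains did not overlap. It also took up to 4 passing members per list and runs of neighbours. All members of the Pas1, class II, known-mutation and chitinase lists were named too. Other named list members mostly complete a count. Values of Gzma, Prf1, Fabp4, Fbp1, Serpina1b, Alb, Lbp and Ldhb were printed or plotted outside the rule. The hepatocyte and erythroid lists were added after the data were seen. Alternatives were the 6 arrays alone, quantile and median scaling, a filter on dim probe sets, all probe sets, a robust prior, array weights, a replicate block and single arrays left out. The fit was tested on simulated data.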

Additional observations from a re-analysis of the deposited data

Results flagged for a closer look

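In 16 genes the difference between A/J and KK/HlJ was called and opposed a called difference in the other strains with the same adenoma labels, taken as the mean of C57BL/6J and DBA/2J minus MRL/MpJ. The 2 contrasts share no array, and their difference was tested in limma over all genes. The second averages 2 strains, whose means were not always alike. The C57BL/6J mean lay farther from MRL/MpJ than the DBA/2J mean did in, among others, Trim12a (8.57, with DBA/2J at 2.57 and MRL/MpJ at 2.57), Nxpe4 (7.32, 3.74 and 3.86), Trim30d (5.98, 3.27 and 3.23), Rpl29 (7.04, 4.61 and 4.35), Klra8 (5.78, 2.96 and 3.13) and H2-Ea (4.79, 11.42 and 10.92). The DBA/2J mean lay farther in, among others, 5830417I10Rik (4.70, with C57BL/6J at 7.53 and MRL/MpJ at 7.70) and 1810037I17Rik (5.54, 3.42 and 3.37). For each gene the log2 difference of A/J minus KK/HlJ is given with that of the other contrast. Genes of the MHC were 3 of them. H2-Ea differed by 6.05 and -2.82, so that the contrasts differed by 8.87 (adjusted p = 1.47e-21). H2-Q9 differed by -1.86 and 3.36, so that the contrasts differed by -5.23 (adjusted p = 1.46e-10). H2-Q6 differed by -1.08 and 2.50, so that the contrasts differed by -3.58 (adjusted p = 7.74e-10). The antiviral TRIM genes and an interferon-stimulated gene were others. Trim12a differed by -5.61 and 3.0, so that the contrasts differed by -8.61 (adjusted p = 2.79e-19). Trim30d differed by -2.98 and 1.40, so that the contrasts differed by -4.38 (adjusted p = 3.98e-14). Ifit3 differed by -1.26 and 1.23, so that the contrasts differed by -2.49 (adjusted p = 1.37e-06). A platelet chemokine gene, a macrophage chitinase-like gene and an NK receptor gene followed. Ppbp differed by -2.45 and 1.48, so that the contrasts differed by -3.93 (adjusted p = 6.15e-05). Chil3 differed by -2.04 and 1.33, so that the contrasts differed by -3.37 (adjusted p = 3.92e-09). Klra8 differed by -1.29 and 1.24, so that the contrasts differed by -2.52 (adjusted p = 6.84e-06). A histone variant gene and a ribosomal protein gene, both with near-identical copies in the genome, were among them. H2az1 differed by -4.18 and 3.32, so that the contrasts differed by -7.49 (adjusted p = 7.34e-11). Rpl29 differed by -2.52 and 1.47, so that the contrasts differed by -3.99 (adjusted p = 1.50e-06). The others have no list here. Nxpe4 differed by -3.48 and 1.67, so that the contrasts differed by -5.16 (adjusted p = 5.99e-17). 1810037I17Rik differed by -1.64 and 1.11, so that the contrasts differed by -2.75 (adjusted p = 4.82e-05). Gm14548 differed by -1.54 and 2.55, so that the contrasts differed by -4.09 (adjusted p = 3.38e-09). Samd5 differed by -1.34 and 1.08, so that the contrasts differed by -2.42 (adjusted p = 2.42e-08). 5830417I10Rik differed by 2.67 and -1.59, so that the contrasts differed by 4.26 (adjusted p = 1.98e-06).

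Among the 986 probe sets with no gene symbol, which the counts above leave out, 8 met the call rule of the same comparison (0.811%); 3 were higher and 5 were lower in A/J. Their differences reached 6.10 and -3.54.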

How the results depend on the processing

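The 173 called genes became 162 to 181 under the scaling, filter, probe set, prior, weight and block alternatives and with the 6 arrays alone, and 160 to 177 with single arrays left out; 0 of 183 named genes passed in the reverse direction. With single arrays left out, the genes called higher in A/J numbered 58 to 72 and those called lower 100 to 109. The genes passing as higher then numbered 370 to 602 and those passing as lower 700 to 1134, the last being fewest without A/J replicate 2. With only the 6 arrays, 334 genes passed as higher and 634 as lower; fewer arrays then estimate the spread. With median centring 875 passed as higher. Without both A/J replicate 1 and KK/HlJ replicate 3, a choice made after seeing the data, 54 were called higher and 113 lower. Of the named genes 44 then no longer passed, among them Nppa and Reg3g (limma adjusted p = 0.118 and 0.081). Of the called genes, 24 to 34 passed in the same direction and 30 to 39 in the opposite direction in the other strains when single arrays were left out; that contrast itself gave 1861 to 4141 passing genes. Of the 183 named genes, 21 no longer passed with the 6 arrays, 7 after quantile normalization, 10 after median centring and 15 to 27 without 1 of the 6 arrays. The 183 include whole lists, some members of which did not pass on all arrays and so could not be lost. With the replicate number as a block 173 genes were called, 553 passed as higher and 1043 as lower, 3548 passed in the other strains, and Fcmr and Itpr2 no longer passed. Deviations of same-numbered A/J and KK/HlJ arrays from their strain means correlated at 0.13, 0.09 and 0.12 across genes, against -0.19 to 0.05 for other pairs. Each array thus correlated best with its own number, but the labels tie the numbers to nothing shared. Deviations from a strain mean cancel within the strain, so part of this gap is built in. The cause of these changes was not tested. Signals near those of Y-linked genes limit what can be read of a low level.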

Other observations

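Called genes outside the lists are given here; they were chosen after their values were seen. Fkbp5, a chaperone of the glucocorticoid receptor, read 8.07, 7.73 and 7.48 in A/J, against 6.75, 6.58 and 6.26 in KK/HlJ (difference 1.22, limma adjusted p = 0.00307), and Zbtb16, a transcription factor, read 9.35, 8.61 and 8.60 in A/J, against 7.72, 8.28 and 7.06 in KK/HlJ (difference 1.17, limma adjusted p = 0.0148). Wfdc2, a secreted epithelial protein, read 10.90, 11.09 and 10.78 in A/J, against 9.56, 9.69 and 9.50 in KK/HlJ (difference 1.34, limma adjusted p = 1.55e-09). Mfsd2a, a lysophospholipid transporter, read 7.58, 7.31 and 7.59 in A/J, against 6.04, 6.20 and 5.87 in KK/HlJ (difference 1.46, limma adjusted p = 5.52e-07), above the other strain means of 5.06 to 6.75. The insulin-like growth factor carrier gene Igfbp3 was higher by 1.33 and the matrix protease gene Mmp3 by 1.26.

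Among the genes lower in A/J, Nox1, a superoxide-producing oxidase, read 4.18, 4.02 and 3.96 in A/J, against 5.80, 5.79 and 5.92 in KK/HlJ (difference -1.78, limma adjusted p = 7.73e-11). Ido1, which degrades tryptophan, read 5.06, 4.97 and 4.96 in A/J, against 6.32, 6.20 and 6.35 in KK/HlJ (difference -1.29, limma adjusted p = 4.69e-07). Il1b, an inflammatory cytokine gene, read 4.85, 5.28 and 5.32 in A/J, against 5.79, 6.33 and 6.60 in KK/HlJ (difference -1.09, limma adjusted p = 0.0018). The strains did not overlap in any of these 3, as in 171 of the 173 called genes.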
